A study of Mus musculus with 45 samples.

Results

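Mast cells are tissue-resident immune cells packed with granules. They are recognised in bulk RNA by genes for granule proteases, for the chains of the high-affinity IgE receptor and for the enzyme that makes histamine. Resident mast cells lie in connective tissue, the mammary fat pad included, and depend on the growth factor receptor Kit. 8 such genes, Cpa3, Tpsb2, Tpsab1, Mcpt4, Cma1, Fcer1a, Ms4a2 and Hdc, are described here, of 18820 genes that had a probe set carrying 1 gene symbol. Each was represented by its single-symbol probe set with the highest mean, and all 8 had exactly 1. The rule for probe sets used gene symbols and the mean level of a probe set, and no comparison between groups. The members themselves were chosen with earlier results of these data known. Counts of members set against all genes are therefore no independent support.

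The 45 tumours arose from BALB/c mammary tissue lacking Trp53 that was grafted into the emptied inguinal mammary fat pads of female hosts of the same strain with normal Trp53. All hosts were 10 weeks old at transplantation, had lost their own mammary epithelium at 3 weeks, and were followed for 600 days. Tumours were removed at a size of 1 cm3. The hosts, and not the transplants, had been given silicon ions (Si), which deposit energy densely along their track, or a sham procedure 3 days earlier. 18 tumours came from sham hosts, 9 from hosts given 10 cGy, 10 from hosts given 30 cGy and 8 from hosts given 80 cGy, so that 27 came from Si hosts. Every group shares the Trp53-null transplant, and each tumour is a mixture with host stroma. In such bulk RNA, fewer mast cells and less RNA per mast cell cannot be told apart. The labels do not say which tumours came from 1 host or donor, so p-values measure the spread between these tumours.

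Values are log2 levels after RMA normalisation, 1 array per tumour, with array medians from 5.48 to 5.80. The number of arrays limits the precision. A gene was tested in limma's fit where its level exceeded 5.67, the median of all values, in at least 8 tumours, which kept 12123 genes. In that fit no gene reached an adjusted p under 0.05 in any comparison below. The epithelial markers were present but varied widely, Epcam from 4.80 to 11.97 and Krt8 from 7.01 to 13.36. 10 tumours had a high score for skeletal muscle or fat genes, 4 of them sham, 1 at 10 cGy, 1 at 30 cGy and 4 at 80 cGy. The sample codes of the sham tumours began with 5 (10 tumours) or 6 (8 tumours), and what this digit stands for is not given in the labels. All codes began with 3 at 10 cGy, with 2 at 30 cGy and with 1 at 80 cGy. Between the host groups, whatever the digit marks cannot be told apart from dose.

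The sequence before the start of these genes is shown because the group is known to share regulators, among them the transcription factor Gata2, and because several members moved together. RefSeq windows of 250 bases before the start were at hand for 6 of the 8 members (assembly GRCm38.p6, of the C57BL/6J strain, whereas the tumours were BALB/c); they were not at hand for Tpsb2 and Tpsab1. The motif searched was GATAA on both strands, where the other strand reads TTATC. 4 windows are printed 5′ to 3′ on the gene's strand, all minus, with the motif in capitals. They lie at chr3:20242182-20242431, chr14:56062311-56062560, chr14:55944676-55944925 and chr1:173227230-173227479.
Cpa3: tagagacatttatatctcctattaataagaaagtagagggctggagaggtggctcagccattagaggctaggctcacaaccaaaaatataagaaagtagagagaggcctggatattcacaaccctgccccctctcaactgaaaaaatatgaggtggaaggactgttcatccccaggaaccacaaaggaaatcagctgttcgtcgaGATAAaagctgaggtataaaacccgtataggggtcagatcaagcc
Mcpt4: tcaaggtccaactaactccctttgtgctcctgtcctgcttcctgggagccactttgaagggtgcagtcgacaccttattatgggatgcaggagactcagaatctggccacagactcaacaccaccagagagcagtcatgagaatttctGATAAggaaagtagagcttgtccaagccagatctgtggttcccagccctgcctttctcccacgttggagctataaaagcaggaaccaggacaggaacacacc
Cma1: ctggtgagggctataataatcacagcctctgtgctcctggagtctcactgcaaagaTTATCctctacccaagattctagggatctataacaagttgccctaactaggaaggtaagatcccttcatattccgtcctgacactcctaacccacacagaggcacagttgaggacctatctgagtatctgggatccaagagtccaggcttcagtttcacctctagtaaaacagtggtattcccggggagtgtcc
Fcer1a: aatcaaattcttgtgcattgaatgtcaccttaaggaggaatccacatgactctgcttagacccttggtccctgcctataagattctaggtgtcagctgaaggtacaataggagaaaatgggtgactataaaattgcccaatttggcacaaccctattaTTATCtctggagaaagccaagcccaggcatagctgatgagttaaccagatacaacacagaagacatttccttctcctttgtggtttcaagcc
The motif was in 5 of the 6 members' windows, against 22.6% of 32851 windows of the same length. Its nearest base lay 41 bases before the start in Cpa3, 98 in Mcpt4, 190 in Cma1 and 88 in Fcer1a. Ms4a2 had 3 copies and Hdc had none in this window. The E-box CANNTG, which reads the same on both strands and can share letters with a GATAA match, was in 4 of the 6 windows against 66.2% of all. These matches describe letters only.

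Mast cell gene levels were high in a few tumours of sham hosts and low in most others. Cpa3 (probe set 10497451, chromosome 3), which encodes the granule carboxypeptidase A3, ranged from 3.92 to 10.98 over the 18 sham tumours, with a median of 5.71. Sham replicates 9, 7, 16, 13 and 5 stood highest, at 10.98, 10.20, 9.41, 8.92 and 8.22. At 10 cGy Cpa3 was 4.78, 4.92, 4.63, 4.65, 4.96, 4.97, 3.96, 6.77 and 4.75 in replicates 1 to 9, so that 8 of the 9 tumours lay within a narrow low band. At 30 cGy it ran from 3.97 to 7.30 (median 5.46), and at 80 cGy from 4.46 to 8.00 (median 6.52). The 5 highest sham tumours lay above every tumour of the Si hosts, and the groups otherwise overlapped. The order of the group means was sham, 6.55 ± 2.16 (SD, n = 18), 80 cGy, 6.40 ± 1.14 (n = 8), 30 cGy, 5.43 ± 1.20 (n = 10), and 10 cGy, 4.93 ± 0.75 (n = 9). No 2 neighbours in that order differed by more than their spread.

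**Figure D1:**
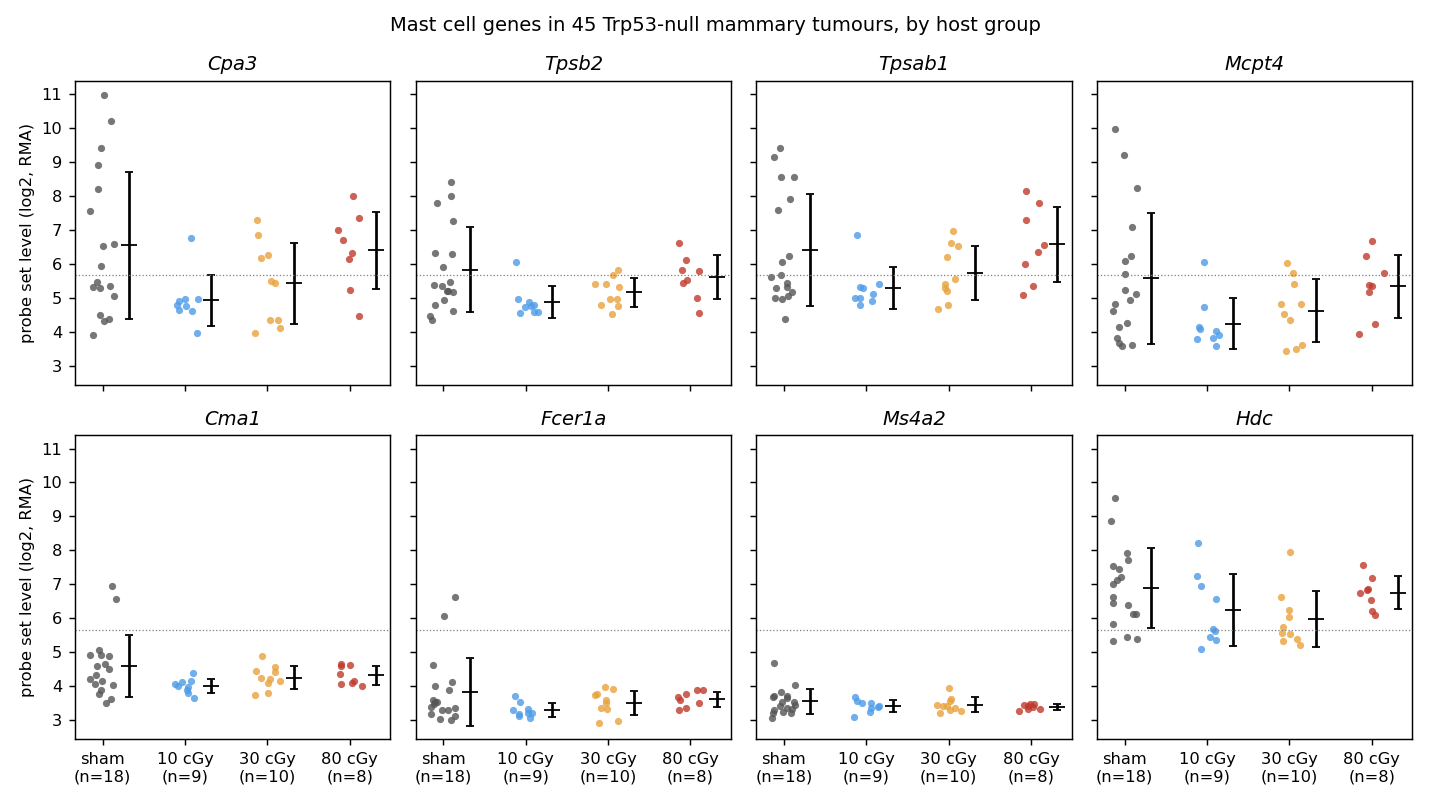
Log2 level of each of the 8 mast cell genes (y axis) in the 45 tumours by host group (x axis), 1 point per tumour, with the mean and SD as bars and the level of 5.67 used in the filter as a dotted line. The highest sham points of Cpa3, Tpsb2, Tpsab1 and Mcpt4 stand above all points of the 3 dose groups, and at 10 cGy all but 1 tumour lie low.

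The tryptase genes gave the same picture. Tpsb2 (probe set 10442786) and Tpsab1 (probe set 10448916), which encode or are annotated as mast cell tryptases, are direct neighbours on chromosome 17; RefSeq lists Tpsab1 in the C57BL/6J assembly as a transcribed pseudogene. Tpsb2 ranged from 4.35 to 8.40 in sham tumours (median 5.36), from 4.55 to 6.05 at 10 cGy (4.77), from 4.54 to 5.81 at 30 cGy (5.14) and from 4.56 to 6.62 at 80 cGy (5.66). Tpsab1 ranged from 4.39 to 9.41 in sham tumours (median 5.66), from 4.80 to 6.85 at 10 cGy (5.11), from 4.67 to 6.98 at 30 cGy (5.49) and from 5.10 to 8.15 at 80 cGy (6.46). Sham replicates 7, 9, 13 and 16 were above every Si tumour for both genes. For Cpa3, Tpsb2 and Tpsab1 alike, 8 of 9 tumours at 10 cGy were below the sham median, against 6 of 10 at 30 cGy and 2 of 8 at 80 cGy. As these 2 genes are closely related neighbours, the split of signal between their probe sets is uncertain.

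The chymase genes Mcpt4 (probe set 10420247) and Cma1 (probe set 10420225) lie near each other on chromosome 14, with 4 protein-coding genes between them, the related Cma2, Mcpt1, Mcpt2 and Mcpt9. Mcpt4, the chymase of connective tissue mast cells, ranged from 3.59 to 9.97 in sham tumours (median 5.03), from 3.60 to 6.07 at 10 cGy (4.04), from 3.43 to 6.02 at 30 cGy (4.68) and from 3.94 to 6.67 at 80 cGy (5.37). The same 4 sham tumours were above every Si tumour. Mcpt4 has 2 further probe sets shared with its neighbours, which were not used. Cma1 was dim, above 5.67 in only 2 tumours, sham replicates 7 (6.57) and 9 (6.94). Elsewhere it lay between 3.51 and 5.08.

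The receptor genes were dimmer still. Fcer1a (probe set 10360338, chromosome 1), the chain of the IgE receptor that binds IgE, reached 6.06 in sham replicate 7 and 6.62 in sham replicate 9, with a median of 3.50 in sham tumours and 3.52 in Si tumours. Ms4a2 (probe set 10466216, chromosome 19), the receptor's beta chain, never exceeded 5.67; its highest value was 4.70, in sham replicate 9, and its medians were 3.49 in sham and 3.43 in Si tumours. Both receptor genes were highest in the same pair of tumours. For Fcer1a sham replicates 16 (4.63), 13 (4.13) and 5 (4.01) followed, also above every Si tumour.

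Hdc (probe set 10487238, chromosome 2), which encodes the enzyme that makes histamine, passed the level of 5.67 in 33 tumours. It ranged from 5.33 to 9.55 in sham tumours (median 6.82), from 5.11 to 8.23 at 10 cGy (5.69), from 5.23 to 7.94 at 30 cGy (5.66) and from 6.09 to 7.57 at 80 cGy (6.79). Only sham replicates 7 (9.55) and 9 (8.88) lay above every Si tumour. Sham replicates 2 and 3 had high Hdc (7.71 and 7.93) with Cpa3 at 5.06 and 5.32, so Hdc did not follow the proteases in every tumour. Neutrophils and other myeloid cells can also express Hdc.

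Each tumour was summarised by the mean over the 8 genes of its level in that tumour less its average in all 45. This deviation was 3.07 in sham replicate 9, 2.78 in sham replicate 7, 1.83 in sham replicate 16 and 1.42 in sham replicate 13. The highest Si tumour, 80 cGy replicate 4, stood at 0.85. The sham median was -0.09, the medians at 10, 30 and 80 cGy were -0.66, -0.33 and 0.23. 23 of 27 Si tumours and 11 of 18 sham tumours lay below the sham mean of 0.34, but only 16 of 27 Si tumours lay below the sham median. The SD was 1.22 in sham tumours against 0.45, 0.52 and 0.46 at the 3 doses.

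**Figure D2:**
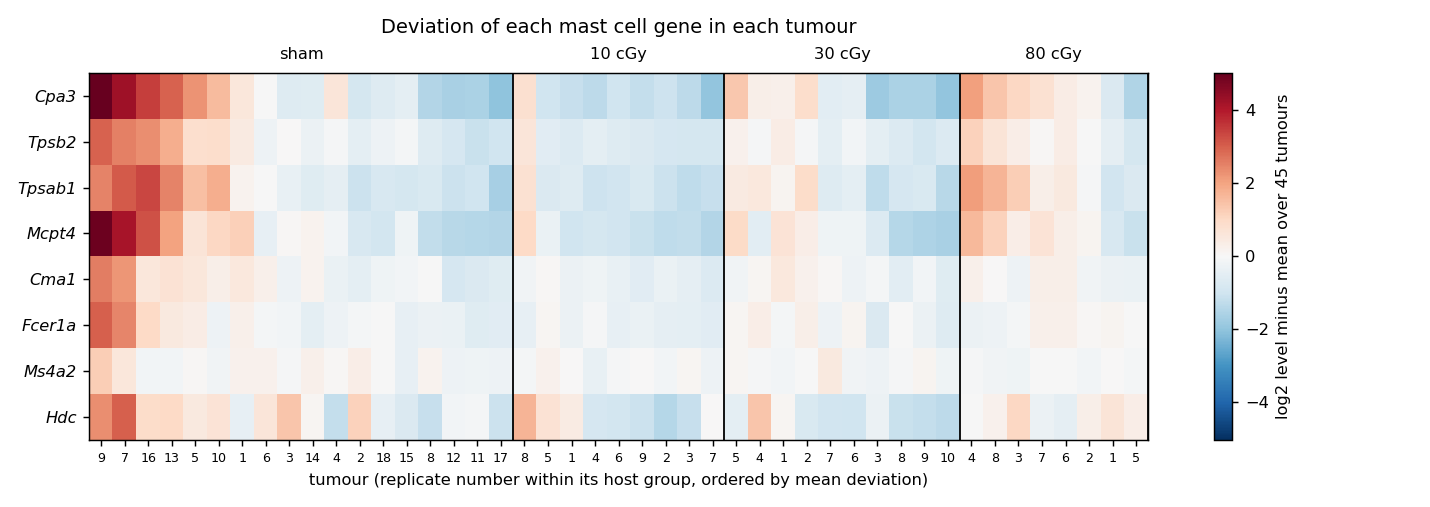
Deviation of each gene (rows) in each tumour (columns, ordered within each host group by the mean over the 8 genes), as the log2 level minus the gene's mean over the 45 tumours; red is above and blue below that mean. Sham replicates 9, 7, 16 and 13 form a red block in the protease rows, and Ms4a2 is pale in nearly all tumours.

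Whether the Si hosts differed from sham was tested first. Of the 5 members kept by the filter, Cpa3, Tpsb2, Tpsab1, Mcpt4 and Hdc, all had a lower mean in Si hosts, as did 46.8% of the 12123 genes. None was called at an adjusted p under 0.05, where percent called was 0 over all genes. 2 of the 5 had an unadjusted p under 0.05 on the lower side, against 2.32% of all genes. The members rise and fall together over the tumours, so such counts, here and below, are not counts of separate events. Tpsb2 differed by -0.61 ± 0.27 (SE; limma p = 0.0265, adjusted p = 0.819; 24 of 27 Si tumours below the sham mean) and Cpa3 by -0.96 ± 0.48 (p = 0.0494, adjusted p = 0.857; 20 of 27). Permutation of the tumours gave an unadjusted p of 0.0314 for Tpsb2 but 0.0622 for Cpa3, with 0.0609 for Mcpt4, 0.0688 for Hdc, 0.172 for Tpsab1, 0.0357 for Cma1, 0.0747 for Fcer1a and 0.116 for Ms4a2. Mcpt4 differed by -0.84 ± 0.42, Hdc by -0.57 ± 0.29 and Tpsab1 by -0.54 ± 0.37. The median of the 5 was -0.61 and that of all genes 0.01. Of the 3 dim members, fitted with all 18820 genes and no filter, Cma1 had an unadjusted p under 0.05 (-0.40 ± 0.19, limma p = 0.0397, adjusted p = 0.956), against 5.15% of genes in either direction. Fcer1a stood at -0.37 ± 0.20 and Ms4a2 at -0.13 ± 0.09.

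The difference from sham was smaller without any 1 of the 4 highest sham tumours, as it must be for tumours picked as the highest. With sham replicate 7, 9, 13 or 16 left out, 1 at a time, 0 of the 5 members had an unadjusted p under 0.05 in limma, against 2.24%, 2.19%, 2.33% and 2.66% of all genes on the lower side. Cpa3 then stood at -0.75 without sham replicate 7, -0.70 without 9, -0.82 without 13 and -0.79 without 16. It also differed between the code series of the sham tumours. Cpa3 averaged 7.09 ± 2.16 (SD, n = 10) in sham tumours coded 5 and 5.88 ± 2.11 (n = 8) in those coded 6. Against the first alone the Si difference in Cpa3 was -1.50 ± 0.52 (SE) with 5 of 5 members at an unadjusted p under 0.05 (3.77% of all genes on the lower side), and against the second -0.29 ± 0.53 with 0 of 5 (3.52%). Without the 10 tumours of high muscle or fat score it was -0.69 ± 0.53, with 0 of 5 (1.81%).

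The lowest dose was farthest from sham for the proteases. At 10 cGy, 5 of 5 members were lower (48.2% of all genes were), 4 of 5 had an unadjusted p under 0.05 on that side, against 1.64% of all genes, and 0 were called at an adjusted p under 0.05, where percent called was 0. These 4 were the protease genes, whose pairs had Pearson r from 0.90 to 0.97, so they are not separate events. Cpa3 differed by -1.62 ± 0.64 (SE; a 3.07-fold higher mean in sham), Mcpt4 by -1.33 ± 0.56, Tpsab1 by -1.11 ± 0.49 and Tpsb2 by -0.95 ± 0.36, each with an adjusted p of 0.991 in limma. Hdc stood at -0.65 ± 0.39. Of the 3 dim members, without the filter, Cma1 (-0.58 ± 0.25) and Fcer1a (-0.55 ± 0.27) had an unadjusted p under 0.05, against 3.57% of genes in either direction, and Ms4a2 stood at -0.14 ± 0.11; each had a limma adjusted p of 0.997. Exact permutation tests of single genes gave p = 0.039 for Cpa3, 0.0359 for Tpsb2, 0.0554 for Mcpt4, 0.0639 for Tpsab1, 0.0672 for Cma1, 0.105 for Fcer1a, 0.175 for Hdc and 0.326 for Ms4a2, unadjusted and two-sided. Of the 6 members under 0.05 in limma, Cpa3 and Tpsb2 were also under it by permutation. Against sham tumours coded 6 alone, Cpa3 differed by -0.95 ± 0.64 and 0 of 5 members had an unadjusted p under 0.05 (2.52% of all genes on the lower side); against those coded 5 it differed by -2.15 ± 0.64, with 5 of 5 (3.09%). All 8 macrophage genes listed were also lower at 10 cGy, with a median of -0.34, and their part in the result was not tested.

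At 30 cGy, 5 of 5 members were again lower (50.8% of all genes), with 1 of 5 at an unadjusted p under 0.05 against 2.43% of all genes on that side, and 0 at an adjusted p under 0.05 (percent called 0). That member was Hdc, at -0.93 ± 0.38 (SE; limma adjusted p = 0.99; 9 of 10 tumours below the sham mean). Permutation gave an unadjusted p of 0.0351 for Hdc and 0.12 to 0.496 for the other 7 members. Cpa3 stood at -1.12 ± 0.62, Mcpt4 at -0.95 ± 0.54, Tpsab1 at -0.68 ± 0.47 and Tpsb2 at -0.67 ± 0.34. None of the 3 dim members had an unadjusted p under 0.05 in limma (4.54% of genes without the filter), with Cma1 at -0.34 ± 0.24, Fcer1a at -0.34 ± 0.26 and Ms4a2 at -0.10 ± 0.11. Neutrophil genes were also on the lower side in 5 of 5 at this dose, with a median of -0.92. Their relation to Hdc over the tumours was not measured, and their part in the result was not tested.

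At 80 cGy the members were close to sham. 4 of 5 were on the lower side (43.4% of all genes) and 0 of 5 had an unadjusted p under 0.05, against 6.97% of all genes in either direction; percent called at an adjusted p under 0.05 was 0. Cpa3 differed by -0.15 ± 0.66 (SE), Tpsb2 by -0.22 ± 0.37, Mcpt4 by -0.23 ± 0.58, Hdc by -0.14 ± 0.41 and Tpsab1 by 0.17 ± 0.51. The dim members stood at -0.27 ± 0.26 (Cma1), -0.22 ± 0.28 (Fcer1a) and -0.16 ± 0.12 (Ms4a2), with 0 of 3 at an unadjusted p under 0.05 in limma, against 6.06% of genes without the filter. These errors leave room for a difference of more than 1 log2 in Cpa3 either way. The sign turned for every one of these 5 genes with some choice of sham tumours or fit.

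**Figure D3:**
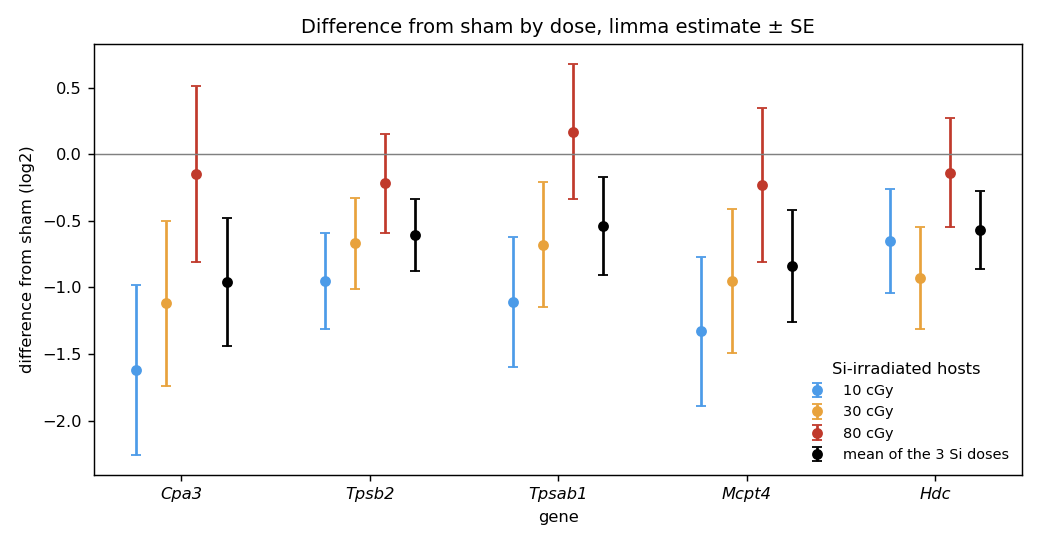
Difference from sham (y axis, log2) of the 5 mast cell genes kept by the filter (x axis), as the limma estimate with its SE, for each Si dose and for the mean of the 3 doses. Estimates at 10 cGy lie lowest for the 4 protease genes and those at 80 cGy lie between -0.23 and 0.17. The 4 estimates of a gene share the same 18 sham tumours.

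Doses were also compared without the sham tumours. 80 cGy tumours had higher means than 10 cGy tumours for 5 of 5 members (55.4% of all genes), 1 of 5 at an unadjusted p under 0.05 against 3.7% of all genes on that side, and 0 at an adjusted p under 0.05 (percent called 0). Tpsab1 differed by 1.27 ± 0.58 (SE; limma p = 0.0348, adjusted p = 0.844), Cpa3 by 1.47 ± 0.76, Mcpt4 by 1.10 ± 0.67, Tpsb2 by 0.73 ± 0.42 and Hdc by 0.51 ± 0.47. Among the dim members, 0 of 3 had an unadjusted p under 0.05 in limma (4.92% of genes without the filter), with Cma1 at 0.31 ± 0.30, Fcer1a at 0.33 ± 0.32 and Ms4a2 at -0.02 ± 0.14. The limma errors come from all 4 groups, and the sham tumours had the largest spread. Exact permutation tests within the 17 tumours gave an unadjusted two-sided p of 0.00773 for Cpa3, 0.0095 for Tpsab1, 0.0168 for Tpsb2, 0.0189 for Mcpt4, 0.00819 for Fcer1a, 0.0221 for Cma1, 0.23 for Hdc and 0.775 for Ms4a2. When limma was fitted to those tumours alone, 4 of 5 members had an unadjusted p under 0.05, against 4.61% of all genes on the higher side, and the adjusted p of Cpa3 was 0.531. These 4, Cpa3, Tpsb2, Tpsab1 and Mcpt4, rise and fall together and are not separate events. The F test among the 3 doses gave an adjusted p of 0.999 for each of the 5 members, with percent called 0. An unadjusted p under 0.05 in that test was found for 0 of these 5 (3.98% of genes kept) and for 0 of the 3 dim members (3.9% of genes without the filter).

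Skeletal muscle genes also differed between these doses. 6 of 6 were higher at 80 cGy than at 10 cGy, each with an unadjusted p under 0.05, by a median of 2.50. Of all genes 55.4% were higher, and 3.7% had such a p on that side. Without the 10 tumours of high muscle or fat score, which left 4 tumours at 80 cGy, the difference in Cpa3 was 2.19 ± 0.91 (SE) and 4 of 5 members had an unadjusted p under 0.05, against 3.66% of all genes on the higher side. Over all 45 tumours the muscle score had a Pearson r of -0.03 with the members' mean deviation. Fibroblast genes (7 of 7, median 0.68), macrophage genes (8 of 8, median 0.41) and neutrophil genes (5 of 5, median 0.66) were also higher at 80 cGy than at 10 cGy, and their part in the result was not tested.

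Members rose and fell together across tumours, the granule proteases most tightly. The 6 pairs among Cpa3, Tpsb2, Tpsab1 and Mcpt4 had Pearson r from 0.90 to 0.97 and Spearman rho from 0.88 to 0.95 over 45 tumours (permutation p = 1e-05, the smallest that 100000 permutations can give). Their r was 0.86 to 0.96 without the 2 tumours farthest from the median, 0.91 to 0.98 within sham and 0.88 to 0.95 within Si tumours. The relation thus held inside both sets of hosts. Cma1 and Fcer1a followed each other with r = 0.89 (rho 0.61), and r was 0.63 without the 2 farthest tumours. Pairs with Hdc had r from 0.39 to 0.66 and, within Si tumours, from -0.09 to 0.46. Pairs with Ms4a2 had r from 0.30 to 0.69 but a median of 0.05 without the 2 farthest tumours; these relations rest on those tumours. Of the 28 pairs, 28 had a Benjamini-Hochberg adjusted permutation p under 0.05 for r and 23 for rho.

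**Figure D4:**
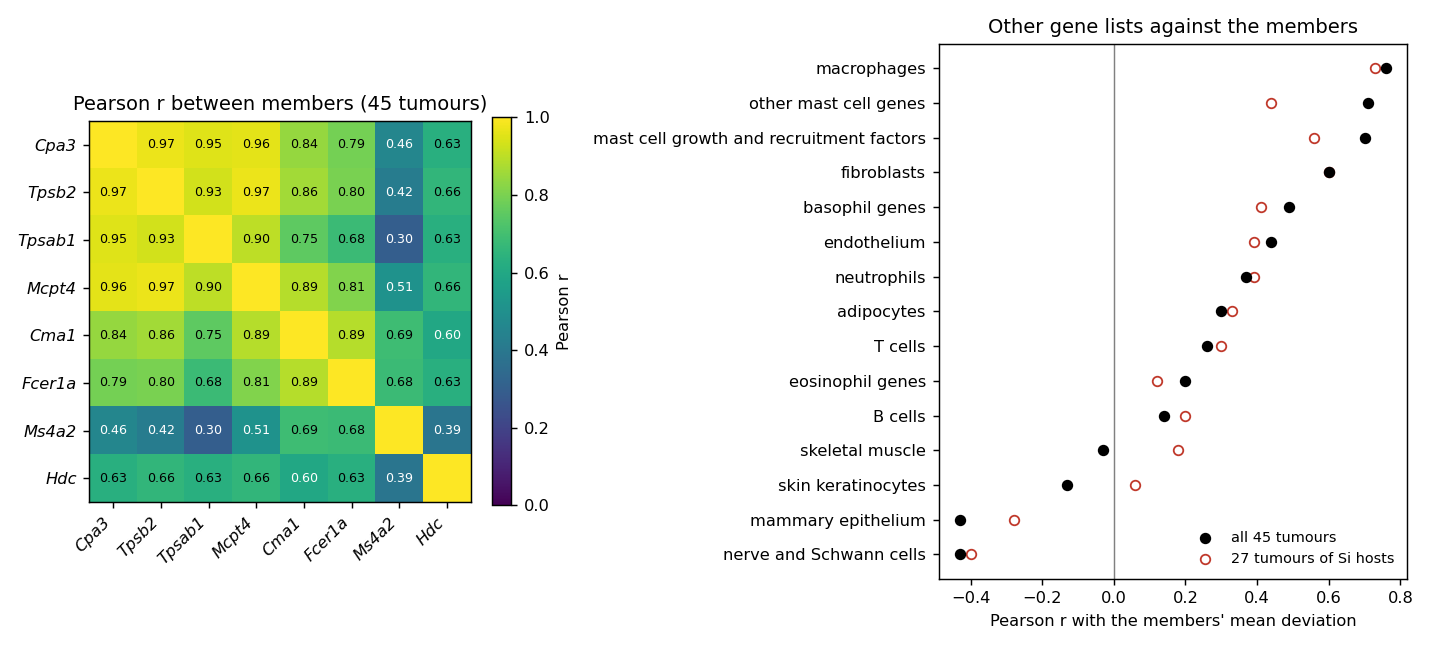
Left, Pearson r over 45 tumours for each pair of the 8 mast cell genes. Right, Pearson r (x axis) of 15 other gene lists with the members' mean deviation, over all 45 tumours (filled) and over the 27 tumours of Si hosts (open); the 4 proteases form the brightest block, from 0.90 to 0.97, and macrophage genes have the highest r, 0.76.

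Other genes of mast cells that were kept by the filter split in their behaviour. Of 27 further mast cell genes listed, 13 were kept by the filter and 10 were dim. In Si hosts 6 of the 13 were lower and 7 higher than in sham hosts, with a median of 0.01, and 46.8% of all genes kept were lower. On the lower side 1 of the 13 had an unadjusted p under 0.05, against 2.32% of all genes. That gene was Ltc4s, the enzyme that makes leukotriene C4, at -0.56 ± 0.27 (SE; limma adjusted p = 0.855) and at -0.73 ± 0.36 for 10 cGy (adjusted p = 0.991); its r with the members' mean deviation was 0.74. Mrgprb1, a mast cell receptor gene, was dim in most tumours but followed the members more closely than any other gene of that list (r = 0.92, rho 0.82). It reached 7.75 in sham replicate 9 against a highest value of 4.68 in Si tumours, and without the filter it differed by -0.61 ± 0.27 between Si and sham hosts (limma adjusted p = 0.922). Tph1, the enzyme that starts serotonin synthesis, is named after its values were seen because it had the smallest p of the list at any dose against sham and went the other way. It stood 1.44 ± 0.41 above sham at 30 cGy (limma p = 0.00108, adjusted p = 0.767), from 4.38 to 9.08 there against 3.87 to 6.95 in sham tumours, and had r = 0.32 with the members. Slc18a2, the transporter that loads histamine into granules, was dim too, from 3.47 to 5.86, highest in sham replicate 9 (r = 0.76). The 10 dim genes were low in most tumours, which limits what their differences can show. Fitted without the filter, their differences between Si and sham hosts ran from -0.61 ± 0.27 for Mrgprb1 to 0.10 ± 0.20 for Cyp11a1. None was called at an adjusted p under 0.05 in limma, where percent called was 0 over all genes.

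Kit, the receptor that mast cells need, did not follow them in these tumours. Its level ran from 6.66 to 11.86 and its r with the members was -0.35 (rho -0.45). It stood higher at 10 cGy than in sham tumours, by 1.08 ± 0.53 (SE; limma p = 0.0477, adjusted p = 0.991), at the dose where the protease genes were lowest. Kit is also a gene of luminal progenitor cells of the mammary epithelium. Kitl, the ligand of Kit, had r = 0.09 and differed by 0.22 ± 0.28 between Si and sham hosts. Gata2 and Mitf, transcription factors of mast cells that other cells also express, had r of 0.50 and 0.53 and differences of -0.23 ± 0.27 and 0.07 ± 0.16. Il33, a cytokine that acts on mast cells, had r = 0.45 and differed by -0.31 ± 0.33. Il1rl1, its receptor, was not analysed here.

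Basophils and eosinophils share some of these genes. The score of 3 basophil genes, Mcpt8, Il3ra and Csf2rb, had a Pearson r of 0.49 and a Spearman rho of 0.52 with the members' mean deviation (permutation adjusted p = 0.00183 over 15 lists for r), 0.57 within sham and 0.41 within Si tumours. Il3ra and Csf2rb, receptor chains that other blood cells also express, had r of 0.60 and 0.51. Mcpt8, a basophil protease gene, ranged from 3.08 to 8.32 and had r = 0.24 with the members; it was highest in sham replicate 7. At 80 cGy it stood 0.82 ± 0.53 above sham (limma adjusted p = 0.799). Of the 8 eosinophil genes listed 5 were dim and 1 was tested. Among the dim ones Il5ra stayed between 2.86 and 3.47 and stood 0.11 ± 0.04 higher in Si hosts (limma p = 0.014, adjusted p = 0.901). None of the 3 basophil genes tested had an unadjusted p under 0.05 for Si against sham.

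Macrophage genes moved with the mast cell genes. Over 45 tumours the score of 8 macrophage genes had a Pearson r of 0.76 and a Spearman rho of 0.75 with the members' mean deviation (permutation adjusted p = 5e-05 over 15 lists), 0.70 without the 2 farthest tumours, 0.77 within sham and 0.73 within Si tumours. Among its genes r ran from 0.46 for C1qb and 0.56 for Adgre1, expressed by macrophages broadly, to 0.75 for Cd163 and 0.82 for Lyve1, markers of resident tissue macrophages. Csf1r (0.56), C1qa (0.59), Cd68 (0.62) and Mrc1 (0.67) filled the range between. Which cells gave the signal of each gene was not tested. The score of 7 mast cell growth and recruitment factors had r = 0.70, fibroblast genes 0.60 and mammary epithelium genes -0.43. Those 7 factors were uneven, with single r from 0.09 for Kitl and 0.20 for Ccl5 to 0.61 for Ccl2 and 0.64 for Ccl11. In all, 9 of the 15 lists had an adjusted permutation p under 0.05 for r and 12 for rho. The list of nerve and Schwann cell genes, scored on Sox10 and Ncmap alone, had r = -0.43. Whether these 2 genes reflect nerve in these tumours was not tested. Adipocyte genes had r = 0.30, T cells 0.26 and B cells 0.14.

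Genes kept by the filter, 12118 without the members, were ranked by r with the mean deviation. The 10 most like the members were Ms4a8a (0.83), Lyve1 (0.82), Cd209f (0.81), Galnt16 (0.81), Fcna (0.81), Ifitm6 (0.79), Slc9a9 (0.77), Ifi205 (0.77), Ccl8 (0.76) and Calml4 (0.76). Without sham replicates 7 and 9 their r lay between 0.54 and 0.72. Each had its highest value in sham replicate 7 or 9. Lyve1 ranged from 5.11 to 11.57 and Cd209f, a lectin gene, from 4.08 to 10.89. Each of the 10 had a lower mean in Si than in sham hosts, as did 46.8% of all genes. Calml4 differed by -0.53 ± 0.18 (SE, limma unadjusted p = 0.00443), Galnt16 by -0.52 ± 0.22 (p = 0.0206) and Ms4a8a by -0.58 ± 0.27 (p = 0.036). None was called at an adjusted p under 0.05. Lyve1 differed by -0.82 ± 0.45, while Ifi205 (-0.02 ± 0.36) and Ccl8 (-0.16 ± 0.37), a chemokine gene, were near 0. The genes were picked for likeness to the members, so a shared direction is no separate support. Dim genes dropped by the filter were not ranked. Among them the further mast cell genes Mrgprb1 (r = 0.92) and Mrgprb2 (r = 0.86) lay above all 10. Mrgprb2 is named after its values were seen.

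**Figure D5:**
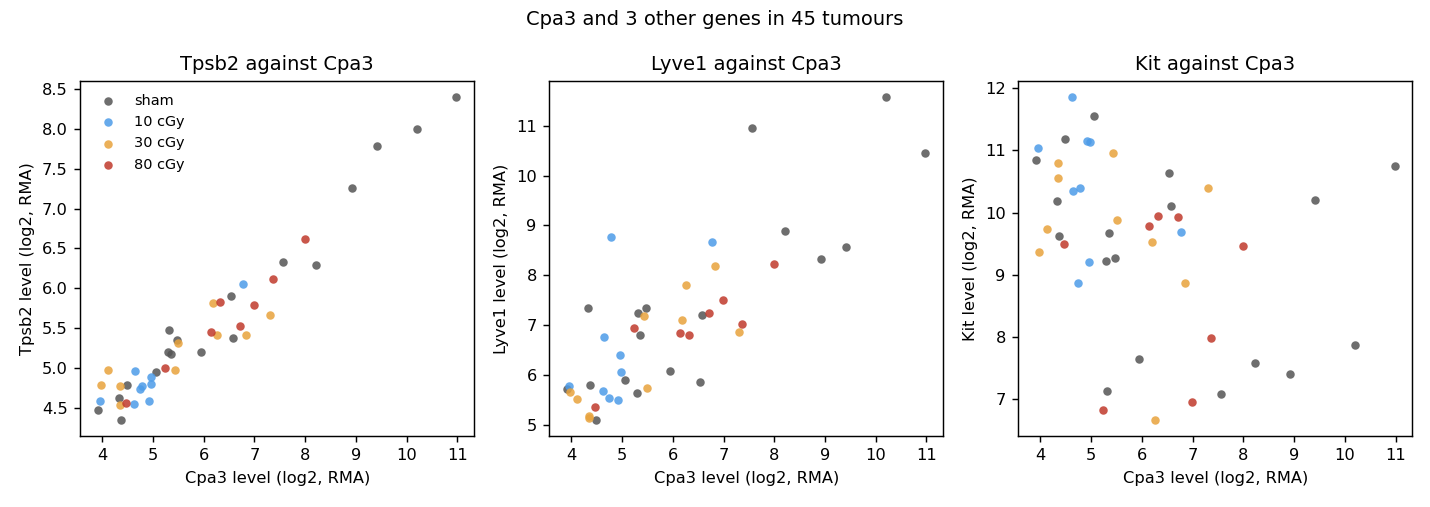
Log2 level of Tpsb2, Lyve1 and Kit (y axes) against that of Cpa3 (x axes) in the 45 tumours, 1 point per tumour, coloured by host group. Tpsb2 follows Cpa3 along 1 line through all groups (r = 0.97), Lyve1 follows with more scatter, and Kit spreads from 6.66 to 11.86 with no rising trend.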

How the data were processed

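Total RNA of each tumour was hybridised to 1 single-colour Affymetrix array. The deposited values are log2 levels per probe set, made by the authors with RMA in the oligo package, per the submitters' processing notes; their versions were not given in the sources used here. Of 35556 probe sets, 21218 carried 1 gene symbol, 1881 several and 12457 none in the platform annotation. Groups were taken from the sample titles.

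The 4 group means were fitted together with limma 3.58.1 in R 4.3.3 (lmFit and eBayes, two-sided, Benjamini-Hochberg over all 12123 genes kept). Si against sham is the unweighted mean of the 3 doses minus sham. Single genes were also tested by permuting tumours, over all arrangements where a group was under 10 and otherwise with 100000 resamples. Named genes were the 8 members, Kit, Kitl, Gata2, Mitf, Il1rl1, Il33, Slc18a2 and Mcpt8, genes of the related lists with an unadjusted p under 0.05 for Si or 10 cGy against sham, and the 10 most alike. Members and lists were chosen with earlier results of these data known. A list's score is the mean deviation of its genes kept by the filter. Tested on simulated data over 12123 genes, the fit called 80 of 100 genes that had been moved by 1 log2 in Si hosts, and 100 of 100 moved by 2, with 9 false calls. For 10, 30 and 80 cGy against sham and 80 against 10 cGy it called 73, 72, 70 and 74 of 100 at 1 log2, and 96, 98, 91 and 93 at 2, with 6, 14, 7 and 8 false calls. These counts are not for the members, whose recovery was not tested. Spread was uneven in Cpa3, with an SD of 2.16 in sham and 0.75 in 10 cGy tumours. Its difference of -1.62 ± 0.64 (SE) at 10 cGy had an adjusted p of 0.991 in limma. Replicate numbers do not pair tumours: over 52 same-numbered pairs the median correlation of deviations was -0.071.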

Additional observations from a re-analysis of the deposited data

Results flagged for a closer look

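Of 27 combinations of a gene, or of the members' mean deviation, with a dose group, 6 had a tumour that stood apart from the rest of its group by Dixon's criterion, which chance meets in about 1 in 20 groups. 5 of these were the same tumour, 10 cGy replicate 8, the highest of its group for Cpa3 (6.77), Tpsb2 (6.05), Tpsab1 (6.85), Mcpt4 (6.07) and the mean deviation (0.53). These genes rise and fall together and are part of the mean deviation, so the 5 flags are not separate events. Without this tumour Cpa3 differed from sham by -1.85 ± 0.66 (SE) at 10 cGy. The gap must widen when a tumour picked as the highest is left out. In that fit 5 of 5 members had an unadjusted p under 0.05 (limma), against 1.5% of all genes on the lower side. Because of that choice, the count adds no support. The other was Hdc in 30 cGy replicate 4, the highest of its group at 7.94. Sham tumours were not examined in this way because the group holds more than 10.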

How the results depend on the processing

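No member reached an adjusted p under 0.05 under any alternative. Over all genes the counts were 0 except for 80 cGy against sham with array weights (30), with only the groups compared (1) and with a replicate block (1), and for Si against sham with a replicate block (6). Leaving out 1 tumour gave 0 to 1 genes for Si against sham and 0 to 1 for 80 cGy. Pairing by replicate number is not borne out by the correlations, so the block has no basis in the design. It gave Cpa3 a difference of -2.21 at 10 cGy. The 5 members kept by the filter stayed lower in Si hosts, and at 10 and 30 cGy, in every alternative that held them. A stricter filter, which asked for at least 18 tumours above its level, held 3 of them and dropped Tpsb2 and Mcpt4. For Si against sham, Cpa3 ran from -1.55 to -0.29 (sham tumours coded 6). The lowest came with only tumours above 0 on the first principal component of probe sets without a gene, chosen after seeing the data. Signs turned only at 80 cGy against sham. With sham tumours coded 6 the differences were 0.52 for Cpa3, 0.08 for Tpsb2, 0.29 for Mcpt4 and 0.28 for Hdc; without tumours of high muscle or fat score they were 0.64, 0.24, 0.50 and 0.15. Tpsab1 turned to -0.07 with the replicate block and to -0.14 with sham tumours coded 5. Leaving out 1 tumour gave -0.38 to 0.13 for Cpa3, -0.06 to 0.38 for Tpsab1, -0.42 to 0.03 for Mcpt4 and -0.25 to 0.02 for Hdc. The cause was not tested. Of the 28 pairs of members, 27 were called with group means removed and 23 without tumours of high muscle or fat score. Dim signal limits Cma1, Fcer1a and Ms4a2, which lay above the filter's level in 2, 2 and 0 tumours.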

Other observations

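8 pairs of tumours share the stem of their sample code and differ in an L or R suffix, which the labels do not explain. Whether such a pair came from 1 host is not given, so its tumours may not be independent. Limma with the stem as a random block had a consensus correlation of 0.241. In that fit Cpa3 differed by -0.96 ± 0.511 (SE) between Si and sham hosts, with an adjusted p of 0.998. Its unadjusted p was then no longer under 0.05, whereas that of Tpsb2 still was. Within these pairs mast cell genes could differ widely. Sham replicates 8 and 9 had Cpa3 at 4.49 and 10.98, and sham replicates 13 and 14 at 8.92 and 5.35, whereas sham replicates 11 and 12 were at 4.37 and 4.32 and 80 cGy replicates 6 and 7 at 6.32 and 6.72.

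The 4 sham tumours with the highest mast cell gene levels differed in their other cell type scores. The macrophage score was 2.01 and 1.70 in sham replicates 7 and 9, 1.17 in 13 and 0.10 in 16. The mammary epithelium score was -0.36 and 0.56 in replicates 7 and 9, and -2.58 and -3.78 in replicates 13 and 16. Replicate 9 had a high adipocyte score (2.97) and replicate 16 a high endothelium score (3.06).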
